A study of Mus musculus with 56 samples.

Results

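The insulin-like growth factor (IGF) axis was followed in visceral adipose tissue (VAT) through 8 genes, which are the ligand Igf1, its receptor Igf1r and the binding protein genes Igfbp2 to Igfbp7. They were taken from the deposited table by their Ensembl identifiers, whatever their values, and are 8 of its 25939 genes. RNA came from female C57BL/6J mice of 9 weeks that had been on daytime-restricted feeding (DRF) or, as controls, nighttime-restricted feeding (NRF) for 7 days under 12 h of light and 12 h of darkness. There were 56 libraries of polyadenylated RNA, each from 1 mouse, with 4 mice per regimen at each of ZT0, ZT4, ZT8, ZT12, ZT16, ZT20 and ZT24, where ZT counts the hours after lights-on and ZT0 and ZT24 were separate groups. No mouse carried a transgene or deletion by the labels, and no group fed without a time limit was used here. The comparison asks whether turning the feeding time round changed the level of these genes over the day or the timing of their rhythm.

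IGF-1 is a growth factor made largely by the liver for the circulation and also made within tissues such as fat, in both cases under the control of growth hormone. It acts through the IGF-1 receptor, a tyrosine kinase related to the insulin receptor, and thereby on the growth and differentiation of fat cell precursors. The IGF binding proteins hold IGFs in blood and in the matrix around cells, and proteases that cut them set the ligand free.

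Values below are CPM, the reads of a gene scaled to the size of its library, recovered from the deposited values, and differences are on the scale of log2(CPM + 1). Whole reads on genes numbered 31127434 to 40971662 per library, and the less abundant members, Igfbp2 and Igf1r, had 40 to 414 and 519 to 2399 reads per library. Across the whole table, limma at an adjusted p under 0.05 called 2961 genes higher and 2667 lower in mean level under DRF, and 2224 higher and 3523 lower when libraries were scaled by their total reads. 3 libraries stood apart. DRF replicate 1 at ZT8 and DRF replicate 4 at ZT0 were the farthest out on the second principal component (10.6 and 9.50 times the median absolute deviation), with summed epithelium markers of 442 and 931 CPM against 17.2 to 75.1 CPM in the other libraries, and summed adipocyte markers of 8274 and 13178 CPM against 14625 CPM or more. NRF replicate 4 at ZT24 held 1642 CPM of summed liver markers against at most 77.6 CPM in the other libraries. For Igf1, Igf1r and the binding protein genes, where a call below changed without these libraries, the value without them is given. Calls for other single genes, such as pathway genes and cell type markers, are from all libraries. How those calls stand without these libraries is not given. The 5 adipocyte markers were above 0 in every library, as the labelled tissue asks.

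Per kilobase of exon, the level in CPM fell over a wide range between the genes. Igfbp6 was the most abundant under NRF, at 388 ± 99.3 CPM per kb (SD, n = 28), followed by Igfbp7 at 329 ± 40.7, Igfbp4 at 162 ± 25.4, Igfbp5 at 114 ± 25.8, Igf1 at 40.7 ± 9.86, Igfbp3 at 21.7 ± 6.60, Igfbp2 at 1.46 ± 0.979 and Igf1r at 1.25 ± 0.229. The order of these levels was the same under DRF. Neighbours in it were told apart in most libraries, as with Igfbp6 above Igfbp7 in 24 of 28 NRF and 22 of 28 DRF libraries, except that Igfbp2 was above Igf1r in only 14 of 28 NRF libraries.

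**Figure D1:**
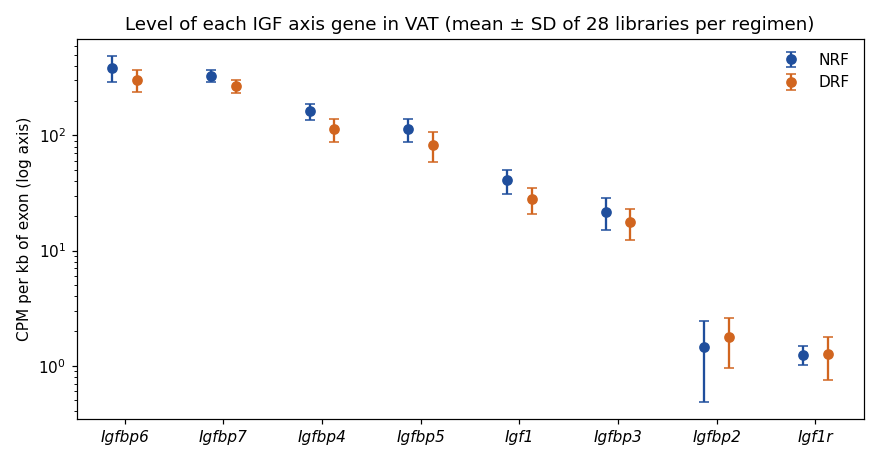
Level of each of the 8 genes in CPM per kilobase of exon, on a log axis, as mean ± SD of the 28 libraries of each regimen. Igfbp6 and Igfbp7 are at the top and Igfbp2 and Igf1r at the bottom under both regimens, and the DRF mean is below the NRF mean for Igf1 and for Igfbp3 to Igfbp7.

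Mean levels over the day were lower under DRF for most of the 8 genes. Of the 8 genes, 6 were lower in mean level (Igf1, Igfbp3, Igfbp4, Igfbp5, Igfbp6 and Igfbp7) and none was higher, where 10.3% of all 25934 genes tested were lower and 11.4% higher. The median difference of the 8 genes was -0.34, beside -0.00036 over all genes. Igf1r differed by -0.08 ± 0.08 (SE; adjusted p = 0.548) and Igfbp2 by 0.29 ± 0.13 (adjusted p = 0.106). Without the 3 libraries that stood apart, the fit called 7 of the 8 genes lower, Igf1r among them at -0.16 ± 0.04 (adjusted p = 0.00179). It called Igfbp2 higher at 0.35 ± 0.12 (adjusted p = 0.0208). More of all 25934 genes were also called in that fit, with 3811 lower and 3829 higher in place of 2667 and 2961.

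**Figure D2:**
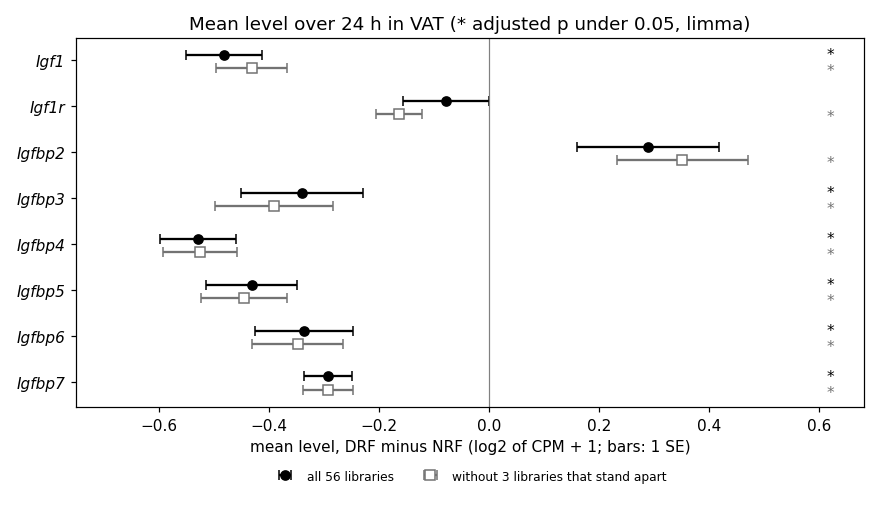
Difference in mean level between DRF and NRF for each gene in log2(CPM + 1), with 1 SE, from limma on all 56 libraries (black circles) and without the 3 libraries that stood apart (open squares). Stars mark an adjusted p under 0.05: 6 genes are below 0 with a star in the first fit and 7 in the other, where Igfbp2 also has a star, above 0.

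Igf1 (ENSMUSG00000020053, chr10:87858265-87937042 of GRCm38, plus strand), the ligand, was 1.40-fold lower in mean level under DRF, with a difference of -0.48 ± 0.07 (SE; adjusted p = 5.97e-07, n = 28 per regimen). Its 28 NRF libraries ran from 242 CPM over a median of 388 to 696 CPM, and the 28 DRF libraries from 166 over 270 to 408 CPM, so that the regimens overlapped when time was left out. The gap was widest at ZT20, ZT24 and ZT0, from the later dark hours to lights-on. At ZT0 the NRF mice had 491, 445, 448 and 455 CPM and the DRF mice 183, 275, 252 and 166 CPM, and no DRF mouse reached the lowest NRF mouse. This was 2.14-fold lower under DRF, by 1.10 on the log2 scale (SE 0.16; adjusted p = 1.08e-05), and 0.97 lower without the DRF library that stood apart at this time. The separate mice of ZT24 showed the same order, with 398, 372, 696 and 546 CPM under NRF and 246, 222, 222 and 296 CPM under DRF, a 1.98-fold lower level (adjusted p = 5.41e-05). Of all genes, 4.74% at ZT0 and 7.35% at ZT24 were separated in this way, with every DRF mouse below every NRF mouse.

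At ZT20 Igf1 was at 438, 491, 359 and 495 CPM under NRF and at 218, 209, 213 and 298 CPM under DRF, again without overlap and with a difference of -0.93 (adjusted p = 5.78e-05). At ZT8 and ZT12 the ranges overlapped, and the differences were -0.09 and 0.08 ± 0.16 (SE; adjusted p = 0.776 and 0.842). At ZT4, 328, 341, 324 and 382 CPM under DRF lay below 441, 443, 487 and 454 CPM under NRF in every mouse, but the difference of -0.41 had an adjusted p of 0.0715. Such separation was found for 12.2% of all genes at ZT4 and 10.1% at ZT20. With libraries scaled by total reads the ZT4 difference was -0.59 (adjusted p = 0.00366), and the one at ZT16 was -0.50 (adjusted p = 0.0256) in place of -0.45 (adjusted p = 0.0736). Without the 2 DRF libraries that stood apart, both differences also passed (adjusted p = 0.0429 and 0.04).

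The 24-h rhythm of Igf1 differed between the regimens, whether time was counted from lights-on (limma F test, adjusted p = 5.98e-06) or with the DRF times moved by 12 h to set day feeding against night feeding (adjusted p = 0.0109). That shift assumes that both food windows began at the same hour of their phase, since the hours of food access are not given in the sources used here. The call by feeding time was lost when replicate 2 or 3 was left out of every group (adjusted p = 0.108 and 0.102). Under NRF, Igf1 was rhythmic by the meta2d-type test, which combines JTK_CYCLE and Lomb-Scargle (adjusted p = 0.00925, and 0.0906 or 0.16 without replicate 1 or 3 in every group). Its NRF group means were between 446 and 503 CPM from ZT20 through ZT24 and at ZT0 and ZT4, and between 292 and 336 CPM from ZT8 to ZT16. Under DRF, the group means were 344, 311 and 355 CPM at ZT4, ZT8 and ZT12 and between 214 and 247 CPM at the other 4 times. The DRF rhythm did not pass the meta2d-type test with all libraries (adjusted p = 0.18), passed it without the DRF library that stood apart at ZT8 (0.0256), and passed the limma F test with all libraries (0.000346, and 0.000105 under NRF). The fitted peak was at 0.69 ± 0.82 h under NRF and 7.97 ± 0.72 h under DRF (SE), which are 7.28 ± 1.09 h apart. This interval is a description without a test, since shifts were tested only for genes that passed the meta2d-type test under both regimens with all libraries. Amplitudes were 0.35 ± 0.07 under NRF and 0.36 ± 0.07 under DRF (Wald test, adjusted p = 0.996).

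**Figure D3:**
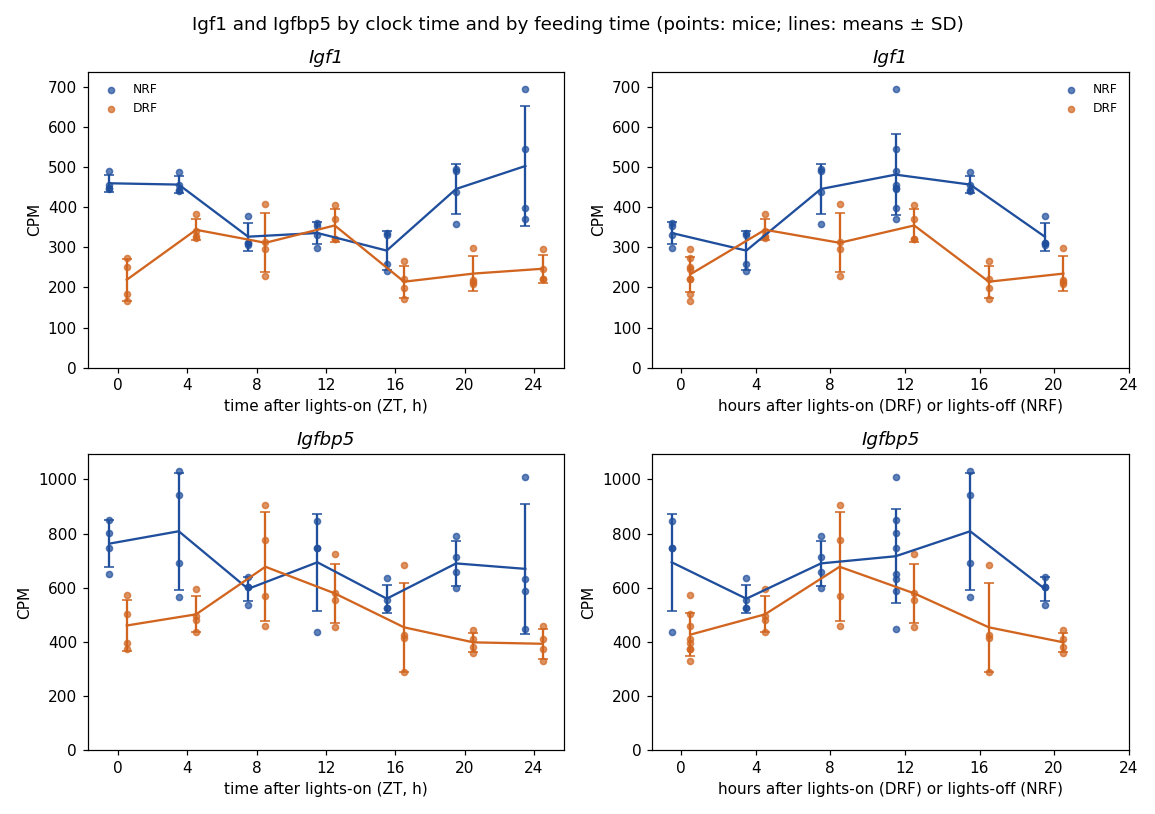
Igf1 (top) and Igfbp5 (bottom) in CPM by hours after lights-on (left) and, on the right, by hours after lights-on for DRF and after lights-off for NRF, where ZT0 and ZT24 fall together. Points are mice, lines join means and bars are SD; on the left Igf1 is apart between regimens at ZT0, ZT4, ZT20 and ZT24 and overlaps at ZT8 and ZT12, and on the right both Igf1 curves are higher at 8 and 12 h than at 0 h, with DRF above NRF only at 4 h.

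With the DRF times moved by 12 h, Igf1 was still lower under DRF in 7 of 8 pairs of groups that then fall together. DRF ZT16 and NRF ZT4 held 214 ± 40.4 and 457 ± 21.1 CPM (SD, n = 4 each), a log2 difference of -1.11. DRF ZT8 and NRF ZT20 held 311 ± 73.8 and 446 ± 63.1 CPM. The exception was DRF ZT4 against NRF ZT16, with 344 ± 26.6 and 292 ± 48.5 CPM. DRF ZT12 was paired with both NRF ZT0 and NRF ZT24, and NRF ZT12 with both DRF ZT0 and DRF ZT24. The pairs are therefore not independent, and the lower mean level under DRF enters each of them. These pairs are descriptions without a test of their own.

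Igf1r (ENSMUSG00000005533, chr7:67952827-68233668, plus strand), the receptor, was rhythmic under NRF (adjusted p = 4.29e-05), where its fitted peak was at 11.8 ± 1.15 h (SE). NRF mice had 27.5, 25.4, 23.2 and 24.9 CPM at ZT8 and 17.8, 14.3, 17.2 and 16.8 CPM at ZT0, its highest and lowest NRF groups by mean CPM. Under DRF the rhythm did not pass (adjusted p = 0.64). The rhythms differed by clock time with an adjusted p of 0.0249, while the amplitude difference of -0.20 ± 0.11 (SE) had an adjusted p of 0.536. With libraries scaled by total reads the adjusted p of the rhythm difference was 0.104, and it was 0.0666 to 0.159 when replicate 2, 3 or 4 was left out of every group.

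Both DRF libraries that stood apart were the highest in Igf1r, with 58.7 CPM at ZT0 and 36.4 CPM at ZT8 against 14.3 to 27.5 CPM in every other library. The part of the epithelium markers in these values was not tested. At ZT0 the Igf1r difference was 0.51 ± 0.20 (SE; adjusted p = 0.0962). It passed, higher under DRF, when any 1 of the other 3 DRF mice of ZT0 was left out (lowest adjusted p = 0.0338) or without replicate 1 in every group (0.68, adjusted p = 0.0485), and was 0.09 without the library that stood apart (adjusted p = 0.813). Without the 3 libraries that stood apart, the rhythm difference by clock time had an adjusted p of 2.79e-05 and that by feeding time 0.000285, and Igf1r was lower under DRF at ZT8 by 0.40 (adjusted p = 0.00672), where DRF mice had 18.6, 18.4 and 19.9 CPM. At ZT12, 20.1, 19.0, 17.8 and 16.7 CPM under DRF lay below 26.6, 26.8, 21.3 and 24.1 CPM under NRF, and the difference of -0.40 passed without these libraries (adjusted p = 0.0027) and not with them (0.181).

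**Figure D4:**
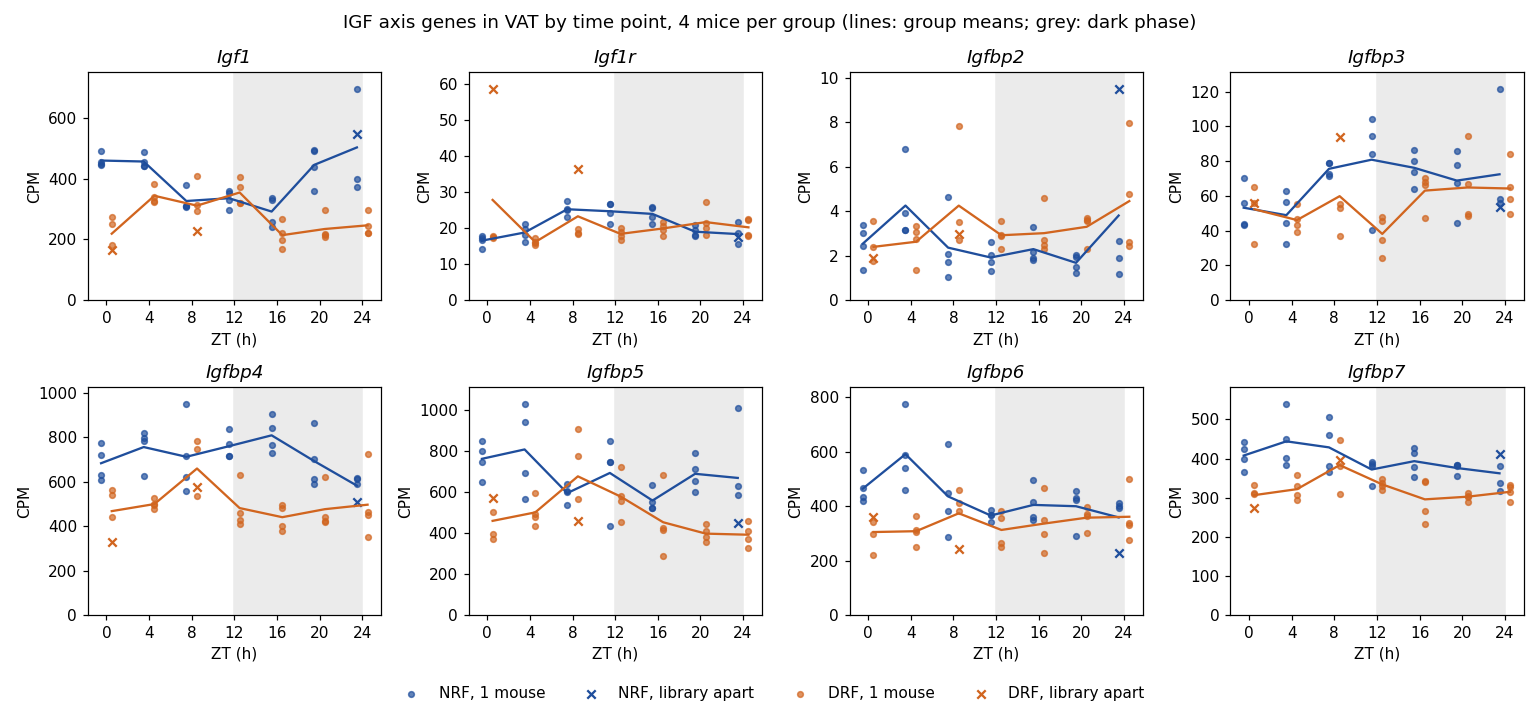
CPM of the 8 genes in each mouse by time point, with NRF in blue, DRF in orange, lines through group means of 4 mice and crosses for the 3 libraries that stood apart. Igf1 is separated at ZT0, ZT4, ZT20 and ZT24, Igfbp4 is lower under DRF at most times, and the 2 highest Igf1r values, 58.7 and 36.4 CPM, are crosses.

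Among the binding proteins, Igfbp4 (ENSMUSG00000017493, chr11:99041244-99054392, plus strand) had the lowest difference in mean level of the 8 genes. IGFBP4 is mainly an inhibitor of IGF action, and is cut by the protease PAPP-A. It was 1.44-fold lower under DRF, by 0.53 (SE 0.07; adjusted p = 6.8e-08). Its NRF libraries ran from 511 over a median of 717 to 952 CPM and its DRF libraries from 329 over 481 to 782 CPM. At ZT16 the NRF mice had 841, 764, 904 and 728 CPM and the DRF mice 402, 484, 380 and 497 CPM, a 1.84-fold lower level without overlap (adjusted p = 0.000603). At ZT4 the DRF mice lay between 479 and 527 CPM and the NRF mice between 626 and 820 CPM, also without overlap (adjusted p = 0.0128).

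Igfbp4 was called lower at 5 of the 7 time points (ZT0, ZT4, ZT12, ZT16 and ZT20) and its ranges did not overlap at 4 of them, ZT0, ZT4, ZT12 and ZT16, where 4.74%, 12.2%, 9.94% and 8.93% of all genes were separated with DRF lower. Of all genes tested, 0.756% were called lower at 4 or more time points. The call at ZT0 (difference -0.57, adjusted p = 0.0273) was lost without any 1 of 3 libraries, one of them the DRF library that stood apart there, with an adjusted p of up to 0.159. It was also lost without both DRF libraries that stood apart (0.141), and without replicate 2, 3 or 4 in every group (0.103, 0.103 and 0.22). The call at ZT4 was lost without replicate 2, 3 or 4 in every group (0.0632, 0.0826 and 0.0671), and that at ZT12 (-0.68, adjusted p = 0.00489) without replicate 4 (0.0581). The call at ZT20 (-0.54, adjusted p = 0.0305) was lost when any of 5 libraries was left out, with an adjusted p of up to 0.148. Without replicate 1, 2 or 3 in every group it was also lost (0.0587, 0.107 and 0.298). At ZT8 DRF mice had 577, 782, 746 and 535 CPM and overlapped with the 558, 952, 624 and 717 CPM under NRF. Neither rhythm passed the meta2d-type test for Igfbp4 (adjusted p = 0.212 under NRF and 0.5 under DRF), and the rhythm difference by clock time did not pass (adjusted p = 0.207).

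Igfbp7 (ENSMUSG00000036256, chr5:77349240-77408041, minus strand) encodes a related protein that binds IGFs weakly and is known from blood vessels and their basement membranes. It was 1.22-fold lower under DRF, by 0.29 (SE 0.04; adjusted p = 1.25e-06), with NRF libraries from 318 over 384 to 540 CPM and DRF libraries from 234 over 317 to 446 CPM. No DRF mouse reached an NRF mouse at ZT0, ZT4, ZT16 and ZT20. At ZT20 the values were 357, 383, 383 and 381 CPM under NRF and 305, 290, 303 and 313 CPM under DRF, but the difference of -0.31 had an adjusted p of 0.0542, while those at ZT0, ZT4 and ZT16 passed (adjusted p = 0.0119, 0.00249 and 0.009). The ZT16 call was lost without DRF replicate 3 at ZT16 (adjusted p = 0.081), and the ZT0 call without the DRF library that stood apart there (0.05002), although it passed at 0.0441 without both such libraries. The ZT0 call was also lost without replicate 1 or 4 in every group (0.0777 and 0.158), the ZT4 call without replicate 3 or 4 (0.0557 and 0.0586), and the ZT16 call without replicate 1 or 3 (0.087 and 0.157). The ZT20 difference passed without both libraries (0.0453). Igf1 and Igfbp7 were each called lower at 3 time points, and 4.64% of all genes were at 3 or more. Separation of the ranges, with DRF lower, was found for 4.74% of all genes at ZT0, 12.2% at ZT4, 8.93% at ZT16 and 10.1% at ZT20. The exons of Igfbp7 overlap those of Polr2b on the other strand, and the library kit does not mark strand, so reads in the overlap cannot be told apart.

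Sequence just upstream of 4 binding protein genes is shown as examples, 3 of genes that were lower in mean level (Igfbp3, Igfbp4 and Igfbp7) and 1 of a gene that was not called with all libraries (Igfbp2). Igfbp5 and Igfbp6 were also lower and are not shown. Each run is the 250 bases before the RefSeq start (GRCm38.p6), read 5′ to 3′ on the strand of the gene, and capitals mark the motifs searched on both strands. The E-box bound by clock proteins was searched as CACGTG, the D-box core as TTATGTAA, the forkhead site as TGTTTAC and the STAT site as TTCNNNGAA. The promoter element bound by TBP was searched as TATAAA and called the TATA box. The element bound by Sp1 was searched as GGGCGG and called the GC box. The windows are chr1:72824230-72824479 (plus strand) for Igfbp2, chr11:7213924-7214173 (minus strand) for Igfbp3, chr11:99040994-99041243 (plus strand) for Igfbp4 and chr5:77408046-77408295 (minus strand) for Igfbp7.
Igfbp2: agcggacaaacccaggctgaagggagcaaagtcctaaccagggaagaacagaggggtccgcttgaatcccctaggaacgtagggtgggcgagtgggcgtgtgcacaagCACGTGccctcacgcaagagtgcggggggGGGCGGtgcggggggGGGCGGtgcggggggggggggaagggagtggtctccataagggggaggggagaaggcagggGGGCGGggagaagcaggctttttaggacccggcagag
Igfbp3: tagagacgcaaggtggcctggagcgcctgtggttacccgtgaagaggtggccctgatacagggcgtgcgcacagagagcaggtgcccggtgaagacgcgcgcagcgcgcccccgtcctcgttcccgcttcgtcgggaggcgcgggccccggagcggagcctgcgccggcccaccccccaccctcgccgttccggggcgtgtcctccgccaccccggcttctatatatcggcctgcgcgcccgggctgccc
Igfbp4: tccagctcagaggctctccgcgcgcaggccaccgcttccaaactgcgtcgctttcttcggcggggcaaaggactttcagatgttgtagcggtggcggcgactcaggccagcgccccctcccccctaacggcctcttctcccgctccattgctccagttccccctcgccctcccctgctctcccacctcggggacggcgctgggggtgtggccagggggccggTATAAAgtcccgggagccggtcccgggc
Igfbp7: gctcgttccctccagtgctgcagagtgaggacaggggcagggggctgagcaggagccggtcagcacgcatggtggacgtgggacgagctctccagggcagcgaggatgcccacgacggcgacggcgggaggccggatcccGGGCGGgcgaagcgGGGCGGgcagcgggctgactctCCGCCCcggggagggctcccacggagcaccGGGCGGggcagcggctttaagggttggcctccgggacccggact

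All 8 genes had a RefSeq window, and the other 4 were searched without being shown. Igfbp4 holds a TATA box at 28 to 23 bases before the start, and the letters also occur in the window of Igfbp6, while 13.0% of all 27025 windows of this length hold these letters. Igfbp2 holds the E-box, found in 1 of the 8 windows and in 6.05% of all windows, and 3 GC boxes, while Igfbp7 holds 4 GC boxes. GC boxes were found in 3 of the 8 windows and 32.9% of all. The D-box, forkhead and STAT letters were in none of the 8 windows and in 0.862%, 3.09% and 7.18% of all windows. A match is a description of the letters and not of binding.

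Igfbp5 (ENSMUSG00000026185, chr1:72857932-72874884, minus strand) encodes a binding protein that attaches to extracellular matrix. It was 1.35-fold lower in mean level, by 0.43 (SE 0.08; adjusted p = 8.65e-05), with NRF libraries from 434 over 645 to 1032 CPM and DRF libraries from 290 over 457 to 906 CPM. At ZT20 the DRF mice had 408, 359, 381 and 443 CPM and the NRF mice 657, 791, 599 and 712 CPM, without overlap and 1.73-fold lower (adjusted p = 0.00959, and 0.143 without replicate 2 in every group). At ZT8 the DRF mice had 460, 906, 568 and 774 CPM and the NRF mice 640, 604, 535 and 603 CPM, and the ranges overlapped.

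Of the 8 genes, the meta2d-type test called 1 rhythmic under DRF, Igfbp5 (adjusted p = 0.00811), beside 14.9% of all genes. Its fitted DRF peak was at 8.71 ± 0.90 h (SE), with an amplitude of 0.35 ± 0.08, and under NRF the adjusted p was 1. The rhythms differed by clock time (adjusted p = 0.0131, and 0.127 or 0.103 without replicate 2 or 3 in every group), but the amplitude difference of 0.21 ± 0.12 did not pass (adjusted p = 0.56). JTK_CYCLE alone gave an adjusted p of 0.0735 for the DRF rhythm, and leaving out replicate 2, 3 or 4 gave 0.0658 to 0.0918. The lower levels at ZT0, ZT4 and ZT24 (adjusted p = 0.02, 0.0266 and 0.0237) were each lost when 1 of 3 to 5 single libraries was left out, with adjusted p of up to 0.0675, 0.126 and 0.163. With a replicate left out of every group, the ZT0 call was lost without replicate 2 or 3 (0.113 and 0.126). The ZT4 call was lost without replicate 2 or 4 (0.101 and 0.207), and the ZT24 call without replicate 2 or 3 (0.152 and 0.189).

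Its neighbour Igfbp2 (ENSMUSG00000039323, chr1:72824503-72852474, plus strand) ends 5457 bases from the end of Igfbp5, and the genes face each other tail to tail. IGFBP2 is a circulating binding protein made by liver and by fat cell precursors. Igfbp2 had few reads, with NRF libraries from 1.03 over 2.07 to 9.51 CPM and DRF libraries from 1.35 over 2.92 to 7.99 CPM. At ZT20 it was at 1.23, 1.97, 1.48 and 2.06 CPM under NRF and at 2.31, 3.72, 3.62 and 3.58 CPM under DRF, and all DRF mice were above all NRF mice, but the difference of 0.68 ± 0.33 (SE) had an adjusted p of 0.187, and 9.61% of all genes were separated at ZT20 with DRF higher. The highest value, 9.51 CPM, was that of the NRF library with liver markers at ZT24. Without that library alone the mean difference was 0.33 ± 0.12 (adjusted p = 0.0326). How far liver RNA contributed to that value was not tested.

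Igfbp3 (ENSMUSG00000020427, chr11:7206086-7213923, minus strand) encodes the main carrier of IGFs in blood. It was 1.27-fold lower in mean level, by 0.34 (SE 0.11; adjusted p = 0.0209), with NRF libraries from 32.2 over 68.8 to 122 CPM and DRF libraries from 24.4 over 54.2 to 94.5 CPM. The largest difference was at ZT12, where NRF mice had 104, 84.3, 40.2 and 94.5 CPM and DRF mice 45.5, 24.4, 48.0 and 34.8 CPM. This was 2.03-fold lower under DRF (adjusted p = 0.00674), with 1 NRF mouse inside the DRF range. At the other 6 time points the differences ran from -0.41 to -0.04 and none passed. The one at ZT8, -0.41 with all libraries, was -0.65 without the 2 DRF libraries that stood apart (adjusted p = 0.106). Leaving out replicate 2 or 4 throughout took the mean difference to -0.27 and -0.30 (adjusted p = 0.123 and 0.129), and the ZT12 difference to -0.78 and -0.89 (adjusted p = 0.0905 and 0.0839).

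Igfbp6 (ENSMUSG00000023046, chr15:102144362-102149511, plus strand) encodes a binding protein that prefers IGF-2 over IGF-1. It was 1.26-fold lower, by 0.34 (SE 0.09; adjusted p = 0.00369), with NRF libraries from 229 over 417 to 776 CPM and DRF libraries from 221 over 341 to 498 CPM. At ZT4 the values were 460, 587, 776 and 540 CPM under NRF and 251, 304, 312 and 365 CPM under DRF, without overlap and with a difference of -0.92 (adjusted p = 0.00182). At ZT0 the ranges were also apart, and the difference of -0.62 had an adjusted p of 0.0577 with all libraries and 0.0215 without the 3 that stood apart. At ZT24 the groups overlapped, with a difference of 0.01. Without replicate 1 the mean difference was -0.25 (adjusted p = 0.0765).

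**Figure D5:**
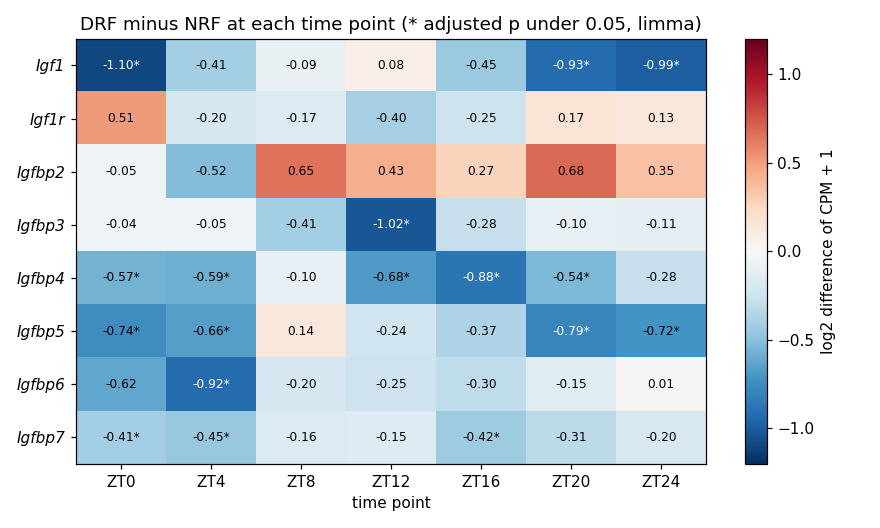
Difference between DRF and NRF in log2(CPM + 1) for each gene (rows) and time point (columns), 4 mice against 4, with stars at an adjusted p under 0.05 in limma. Starred cells are all below 0 and none is at ZT8, while Igfbp2 and Igf1r have none.

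Over single time points, members called lower numbered 4 at ZT0, 4 at ZT4, none at ZT8, 2 at ZT12, 2 at ZT16, 3 at ZT20 and 2 at ZT24, and none was called higher. Of all genes, 5.06%, 9.04%, 7.47%, 7.38%, 4.97%, 6.41% and 5.24% were called lower at these times. At ZT8, where limma called none of the 8 genes and 1 without the libraries that stood apart (Igf1r), 0 genes had an unadjusted p under 0.05, and 16.5% of all genes were called in either direction. The 8 genes share their libraries, so these counts are not independent of each other.

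For rhythm, counts of the 8 genes were close to those of the table. Under NRF the meta2d-type test called 2 of 8 (Igf1 and Igf1r) and 30.2% of all genes, and under DRF it called 1 of 8. The limma F test called 2 of 8 under NRF (Igf1 and Igf1r) beside 33.7% of all genes, and 3 of 8 under DRF (Igf1, Igfbp5 and Igfbp7) beside 26.7%. Between regimens, limma called 3 of 8 by clock time (Igf1, Igf1r and Igfbp5), beside 36.0% of all genes, and 2 of 8 by feeding time (Igf1 and Igfbp7), beside 14.9%. The Igfbp7 call by feeding time (adjusted p = 0.0208) became 0.0505 without DRF replicate 2 at ZT8, and 0.125, 0.119 and 0.088 without replicate 1, 2 or 4 in every group. Wald tests called 0 of 8 amplitude differences, also 0 at an unadjusted p under 0.05, and 1.44% of all genes. By the meta2d-type test on all libraries no member was rhythmic under both regimens, and a phase shift was tested only for genes that were. Igf1 passed under both regimens by the limma F test, and by the meta2d-type test without the 2 DRF libraries that stood apart (adjusted p = 0.00925 under NRF and 0.0162 under DRF).

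Without these 2 DRF libraries, further rhythm calls changed. The limma F test for Igfbp7 under DRF went from an adjusted p of 0.0315 to 0.0819 (0.0854 without all 3), while the meta2d-type test for the same rhythm passed (0.0385 in place of 0.2). Igf1r passed the limma F test under DRF (0.0336 in place of 0.733). By clock time Igfbp3 differed in rhythm (0.0345, and 0.0424 without all 3, in place of 0.114), and by feeding time Igf1r and Igfbp5 did (0.00022 and 0.0302).

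Beyond these 8 genes, other ligands, receptors and carriers of the axis showed few changes in mean level. Of 7 such genes listed, 5 were in the table and 1 was lower, beside 10.3% of all genes. It was Insrr, which encodes a relative of the receptor and stood at 0.0805 CPM on average. By clock time, 2 of the 5 differed in rhythm, beside 36.0% of all genes. The rhythm of Insr, the insulin receptor gene, differed (adjusted p = 3.56e-07), as did that of Igfals (1.55e-05), which encodes the subunit that joins IGFBP3 and IGF in serum. Among 5 proteases and inhibitors, 1 was lower and 1 higher, beside 10.3% and 11.4% of all genes. Htra1, a secreted protease, was lower by 0.43 (SE 0.07; adjusted p = 2.45e-06), and Stc1, an inhibitor of PAPP-A, was higher by 0.32 (SE 0.11; adjusted p = 0.0235). The median difference of the 5 was -0.02.

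Upstream of Igf1, 4 of 8 genes of the growth hormone input were lower in mean level and none higher, beside 10.3% and 11.4% of all genes. Ghr, the growth hormone receptor, was lower by 0.24 (SE 0.07; adjusted p = 0.00692), Socs2, a feedback inhibitor of that receptor, by 0.36 (SE 0.12; adjusted p = 0.0205), Socs3 by 0.21 and Stat5b by 0.10. The median of the 8 was -0.17. Below the receptor, 3 of 10 genes were lower, beside the same 10.3% of all genes, namely Irs2 by 0.45 (SE 0.13; adjusted p = 0.00585), Grb10 by 0.16 and Akt1 by 0.15, and none was higher. Of these 10 signalling genes, 8 differed in rhythm by clock time, beside 36.0% of all genes, among them the adaptor gene Irs2 with an adjusted p of 1.00e-14. The median of the 10 was -0.04.

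Some markers of other cell types were also lower under DRF. Of 5 markers each, 4 of progenitors and fibroblasts were lower under DRF, as were 3 of macrophages, 2 of mesothelium, 1 of adipocytes, 1 of endothelium and 1 of smooth muscle and pericytes, and none of any list was higher, beside 10.3% of all genes lower and 11.4% higher. The endothelium marker was Emcn, and the other 4 had estimates above 0. No lymphocyte, epithelium or liver marker was called. The summed level of the 5 progenitor and fibroblast markers ran from 1508 over a median of 2219 to 3103 CPM under NRF and from 1336 over 1660 to 2251 CPM under DRF. The macrophage sum had medians of 498 and 414 CPM and the mesothelium sum of 448 and 341 CPM under NRF and DRF. The sums of the adipocyte markers (19484 and 21564 CPM), endothelium markers (748 and 781 CPM) and smooth muscle and pericyte markers (558 and 563 CPM) had medians that were not lower under DRF. The adipocyte sum is mostly Fabp4, at 12178 CPM on average, and 4 of 5 adipocyte and 4 of 5 smooth muscle and pericyte markers had estimates below 0. The smooth muscle and pericyte sum had means of 612 and 566 CPM. No marker of these lists was at 0. In bulk tissue, fewer cells of a type and less RNA per cell cannot be told apart, and the part of these cell types in the lower levels of Igf1 and the binding proteins was not tested.

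Within groups, some members varied together from mouse to mouse. After each group mean was taken out, 28 pairs of members were compared over 56 mice, and 3 pairs passed at a Benjamini-Hochberg adjusted p under 0.05 in both Pearson's and Spearman's coefficients, by 100000 permutations within groups. The share of pairs of other genes that would pass was not computed, so the count does not show that these correlations are particular to the members. Igf1 and Igf1r ran in opposite directions (r = -0.52, p = 0.00079, adjusted p = 0.013; rho = -0.45, p = 0.0026, adjusted p = 0.031), with r = -0.50 without the 2 mice farthest from the median of Igf1 and r = -0.47 within NRF and -0.58 within DRF. Igfbp4 and Igfbp6 rose and fell together (r = 0.52, p = 0.00094, adjusted p = 0.013; rho = 0.51, p = 0.00088, adjusted p = 0.025), with r = 0.42 without the 2 farthest, 0.62 within NRF and 0.46 within DRF. Igf1 and Igfbp5 also did (r = 0.47, p = 0.0052, adjusted p = 0.049; rho = 0.42, p = 0.0062, adjusted p = 0.043), with r = 0.36 without the 2 farthest, 0.38 within NRF and 0.55 within DRF. Without the 3 libraries that stood apart the coefficients were -0.40, 0.61 and 0.59.

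By the 14 group means, other genes ran close to single members, as a description over 14 groups without a test. Nearest to Igf1 were Gnb5 (Pearson r = 0.91), Hmgn1 (0.91) and Dsel (0.90), and nearest to Igf1r were 2900089D17Rik, Lrch1 and Aox3 (0.93, 0.93 and 0.92). Igfbp4 was nearest to the immunoproteasome genes Psmb10 (0.95) and Psmb8 (0.94) and to Clec4b1 (0.93), and Igfbp7 to Rcn1 (0.96), Mgat3 (0.95) and Psmb10 (0.95). Igfbp5 was nearest to Gm10036 (0.91), Rcn1 (0.91) and Hmgn1 (0.90), Igfbp6 to the mesothelial marker Upk3b (0.94), Laptm4a (0.92) and Jchain (0.92), and Igfbp3 to Mamdc2 (0.91), Scn4b (0.90) and Inmt (0.85). For Igfbp2 the 3 nearest, Serpine2, Gstm6 and Kng2, were at 0.80, 0.80 and 0.78.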

How the data were processed

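Deposited values were available for VAT of 56 mice, 28 per regimen, each library from another mouse. According to the labels' processing notes, HISAT2 2.0.5, featureCounts 1.5.0-p3 and mm10 were used. The authors deposited 1 score per gene and library, named TPM. Multiplied by exon length (GENCODE M21), these values fell on the steps of log2(CPM + 1), and whole reads were recovered from them: 100% of 1262023 values of up to 10000 reads lay within 0.02 of a whole number. Exon length came from the annotation for 25045 genes, which hold 1215978 of these values. For 877 genes it was chosen from the values as a length that gives whole reads. Annotated lengths were kept only where they gave whole reads, so the 100% is in part set by this choice. There were 12 genes too abundant for this, and 5 unresolved genes were left out, so that 25934 were tested. CPM uses the library size implied by the deposited values.

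limma 3.58.1 (R 4.3.3) was fitted to log2(CPM + 1) of all libraries with a mean, a cosine and a sine of 24 h per regimen, and, for single time points, with 14 group means. Rhythm within a regimen was tested on the deposited values by a meta2d-type combination of JTK_CYCLE and Lomb-Scargle, and amplitudes by Wald tests in a cosinor model, both written in Python 3.11.15 (numpy 2.4.6, scipy 1.17.1). Calls used a Benjamini-Hochberg adjusted p under 0.05 over all genes. The code was tested on simulated data. All 8 members are named whatever their values. Other pathway genes are all counted, and examples are named only from those that passed the test of mean level or of rhythm difference by clock time. Also named are the 3 genes most like each member by Pearson's r over 14 group means among 14298 genes with at least 1 CPM. The members and lists were chosen with earlier results of these data known. Alternatives were another scaling (total reads), a pseudocount of 0.25 CPM, a filter at 1 CPM, precision weights, a replicate block and left-out libraries. Replicates of a group differed by more than sampling noise. The hours of food access are not given in the sources used here, and the step from counts to the deposited scores is not given either.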

Additional observations from a re-analysis of the deposited data

Results flagged for a closer look

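Among 112 groups of 4 mice (8 genes in 14 groups), 1 mouse stood apart from the other 3 by Dixon's test in 12, where chance gives about 1 in 20 groups, or 5.6. For Igf1 these were 298 CPM in DRF at ZT20 and 379 CPM in NRF at ZT8, both the highest of their group. For Igf1r they were 58.7 CPM in DRF at ZT0 and 36.4 CPM in DRF at ZT8, which came from the libraries with raised epithelium markers. For Igfbp2 they were 7.82 CPM in DRF at ZT8, the highest, and 2.31 CPM in DRF at ZT20, the lowest. For Igfbp3 they were 47.4 CPM in DRF at ZT16, the lowest, and 122 CPM in NRF at ZT24, the highest. Igfbp4 had 622 CPM in 1 DRF mouse at ZT20, the highest there. Igfbp6 had 229 CPM in 1 NRF mouse at ZT24, the lowest there, in the library with raised liver markers. Igfbp7 had 331 CPM in 1 NRF mouse at ZT12 and 357 CPM in 1 NRF mouse at ZT20, both the lowest of their group.

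The 24-h rhythm differed between DRF and NRF in the interaction test of limma for 3 members, with an adjusted p of 5.98e-06 for Igf1, 0.0249 for Igf1r and 0.0131 for Igfbp5. This is 3 of 8 members beside 36.0% of all genes. Without replicate 2 or 3 in every group the count was 1, with an adjusted p of 0.159 and 0.0666 for Igf1r and of 0.127 and 0.103 for Igfbp5.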

How the results depend on the processing

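Of 1200 values of single genes under other settings, 1108 kept their side of the threshold, 47 lost the call and 45 gained it. Direction changed in 0 of those called in either fit, while some differences near 0 that passed in neither changed sign, such as Igf1 at ZT8 (-0.09, and 0.04 without the 2 DRF libraries that stood apart). The alternatives that leave out the library with liver markers, alone or with the 2 DRF libraries, were chosen after seeing the data. In mean level, 1 member was higher under DRF without the library with liver markers or without all 3. By feeding time 4 members differed in rhythm without the 2 DRF libraries or without all 3, and 1 member was called at ZT8 under both. By feeding time 4912 and 5054 of all genes differed in rhythm in these fits, in place of 3872. Under DRF, members called rhythmic numbered 0 by JTK_CYCLE alone, 2 on log2(CPM + 1), 3 without the 2 DRF libraries or all 3, and 3 by the limma F test. Of all genes, 2968 were rhythmic under DRF by JTK_CYCLE alone, 4464 on log2(CPM + 1) and 5011 without the 2 DRF libraries or all 3. The number was 2353 without ZT24 and 6928 by the limma F test, in place of 3869. Amplitude differed for 572 and 561 of all genes without the 2 and the 3 libraries, in place of 373. Scaling by total reads changed the calls for all genes in mean level from 2961 higher and 2667 lower to 2224 higher and 3523 lower. For none of these was the cause tested.

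When the mice of 1 replicate number were removed from every group, members lower in mean level numbered 5 to 6. Members differing in rhythm numbered 1 to 3 by clock time and 0 to 2 by feeding time, and members rhythmic numbered 1 to 2 under NRF and 0 to 1 under DRF. Members called numbered 2 to 4 at ZT0, 1 to 4 at ZT4, 0 to 2 at ZT12, 1 to 2 at ZT16, 1 to 3 at ZT20 and 1 to 2 at ZT24. Of all genes, 1698 to 2139 were lower in mean level, and 7363 to 8266 differed in rhythm by clock time and 1424 to 3243 by feeding time. Rhythmic genes numbered 5166 to 6375 under NRF and 1714 to 2426 under DRF, and 80 to 264 differed in amplitude. These fits have 42 mice in place of 56.

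The deviations of 364 pairs with the same replicate number correlated with a mean of 0.041 (from -0.66 to 0.56), beside a mean of -0.012 for other numbers. Of 56 libraries, 16 correlated best with their own number. Whether replicate numbers pair the mice was not tested. With the replicate number as a block, 6 members and 2759 genes were lower in mean level and 3053 genes higher, and the limma F test with the block called 3 members and 7185 genes rhythmic under DRF. At single time points, the limma fit with the block also called Igf1 lower at ZT4 and ZT16 and Igfbp6 at ZT0 (adjusted p = 0.0456, 0.0457 and 0.037). The low read number of Igfbp2 limits what can be told of that gene.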
